A study of Mus musculus with 2 samples.

Results

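Annexins are a family of proteins that bind negatively charged phospholipids on the inner face of cell membranes when calcium enters the cell. All share a conserved core of repeats that carries the calcium sites, and they differ mainly in their N-terminal tails, where partner proteins such as S100 dimers dock. In the liver they are known for endosome traffic, exocytosis, the patching of torn plasma membranes and the binding of plasminogen at the cell surface. The 9 annexin genes described here are Anxa1, Anxa2, Anxa3, Anxa4, Anxa5, Anxa6, Anxa7, Anxa11 and Anxa13, which were taken by name from the 20823 genes of a raw count table. The family was examined because Anxa2 was higher after acetaminophen in these same libraries, so its own value is a description, and the question is how far the other members share it.

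The table held 2 mRNA-seq libraries of mouse liver hepatocytes from C57BL6J animals aged 8 weeks. The control library came from an animal or animals given no agent. The APAP library came from liver taken 24 h after acetaminophen (APAP), a painkiller that at high dose kills hepatocytes around the central vein, was injected intraperitoneally in saline at 300 mg/kg. For both, cells from a collagenase perfusion were depleted by flow cytometry of cells with CD31, an endothelial protein, and CD45, a leukocyte protein, and 20000 hepatocytes with high surface Cxcr2, a chemokine receptor, were collected. The labels give neither the number of animals in a library nor whether the control received saline.

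Each group was a single library without replicates, so no test was made and no p-value is given, and every interval below is a 95% interval of counting error only and compares 2 libraries, not the conditions. The libraries held 52419864 (control) and 51009898 (APAP) counts, and levels are given as CPM, counts scaled to an effective library total of 1000000 with TMM factors. A gene was called higher or lower if both libraries together held at least 20 counts, the fold was at least 2 and its interval excluded 1. Of 12 hepatocyte markers such as Alb and Apoa1, 11 were matched by symbol, since Tf was not entered under its mouse symbol. Together these 11 took 5.67% of control and 9.98% of APAP counts. They did not move together: 6 had a ratio interval above 1 and 5 below 1, with Alb at 1.57 and Fabp1 at 0.354. This split depends on the scaling. With scaling by library totals in place of TMM, Apob, Apoh and Hnf4a turned from below 1 to 1.14, 1.22 and 1.21. Cps1 and Fabp1 stayed below 1, at 0.906 and 0.450. Cxcr2 itself had 0 control and 2 APAP counts. In sorted bulk samples, fewer cells of a type and less RNA per cell cannot be told apart.

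As a family, the annexins were not uniformly higher in the APAP library. Of the 9 members, 7 held at least 20 counts. Of these 7, Anxa2, Anxa3 and Anxa5 were called higher, 0 were called lower, and Anxa4, Anxa6, Anxa7 and Anxa11 met neither rule. Among all 14096 genes with enough counts, 10.7% were called higher and 7.09% lower, and since the family was chosen on this contrast nothing is read from its count. The median log2 fold of the 7 members was 0.55, beside 0.02 over all 14096 genes. It includes Anxa2, on which the family was chosen, so nothing is read from it either. Anxa1 and Anxa13 stayed at or below 2 counts in each library and were given no fold.

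**Figure D1:**
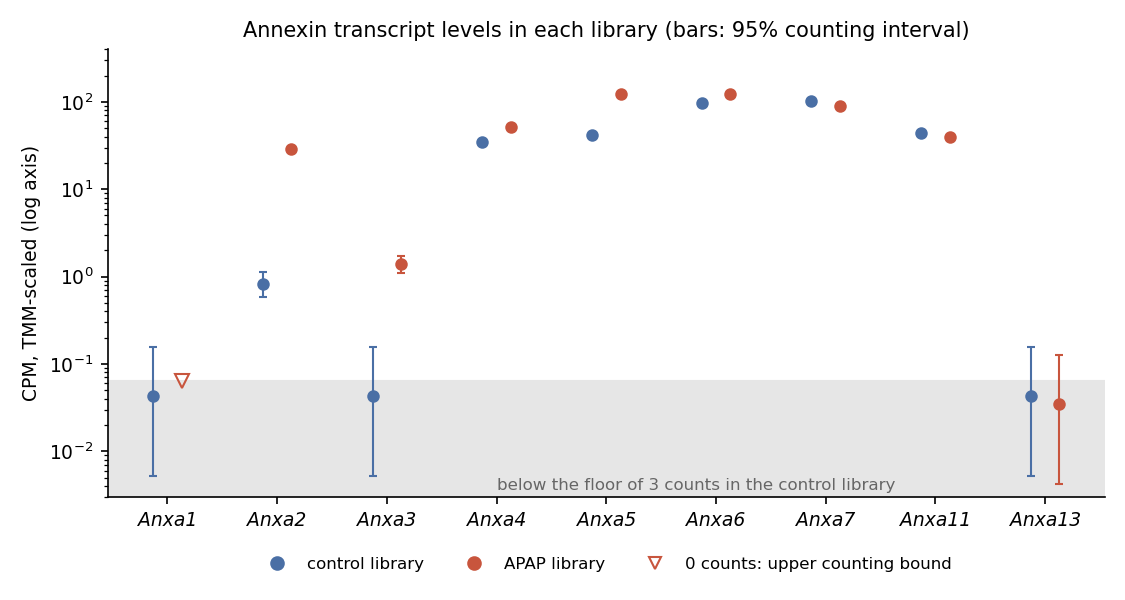
Level of each annexin in the control library (blue) and the APAP library (red), in TMM-scaled CPM on a log axis, with bars for the 95% counting interval and a shaded zone below 3 counts in the control library. Anxa2 moved from 0.817 to 29.0 CPM and Anxa5 from 41.2 to 125 CPM, while Anxa7 and Anxa11 lay close together in both libraries and Anxa1 and Anxa13 stayed in or near the shaded zone.

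Anxa2 encodes the annexin that pairs with the S100 protein S100a10, links membranes to actin and binds plasminogen and its activator at the cell surface. It had 38 control counts against 1670 after APAP, or 0.817 and 29.0 CPM. Its level was 35.6-fold higher in the APAP library (25.8 to 50.4). A larger fold upward was seen for 29 of the 14096 genes that met the count minimum, with genes at 0 counts placed at a bound against 3 counts.

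The 250 bases upstream of the annotated start are shown for Anxa2, for Anxa5, which was also called higher, and for Anxa11, which was not, since a reader may ask whether genes with different folds carry different promoter letters. The sequences are RefSeq promoters of build GRCm38.p6, which is not the build of the counts, read 5′ to 3′ on the strand of the gene. Capitals mark matches on either strand to any of 7 motifs. The letters searched were TGANTCA for AP-1, GGAATG for TEAD factors, TTCNNNGAA for STAT factors, TGACGTCA for the cyclic AMP response element (CRE), TATAAA for the TATA box, GGGCGG for the GC box, and CCAAT. The windows lie at chr9:69453433-69453682 (+ strand) for Anxa2, chr3:36475888-36476137 (- strand) for Anxa5 and chr14:25841905-25842154 (+ strand) for Anxa11.
Anxa2: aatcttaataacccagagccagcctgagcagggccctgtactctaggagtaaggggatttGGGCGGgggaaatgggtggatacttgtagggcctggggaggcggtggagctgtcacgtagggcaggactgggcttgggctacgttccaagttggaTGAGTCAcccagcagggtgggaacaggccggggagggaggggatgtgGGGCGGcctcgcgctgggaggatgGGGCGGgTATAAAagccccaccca
Anxa5: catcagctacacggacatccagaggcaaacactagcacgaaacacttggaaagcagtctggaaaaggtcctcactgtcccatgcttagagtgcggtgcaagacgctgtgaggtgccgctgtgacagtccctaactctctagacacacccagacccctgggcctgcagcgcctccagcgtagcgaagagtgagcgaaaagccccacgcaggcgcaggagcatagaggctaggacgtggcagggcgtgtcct
Anxa11: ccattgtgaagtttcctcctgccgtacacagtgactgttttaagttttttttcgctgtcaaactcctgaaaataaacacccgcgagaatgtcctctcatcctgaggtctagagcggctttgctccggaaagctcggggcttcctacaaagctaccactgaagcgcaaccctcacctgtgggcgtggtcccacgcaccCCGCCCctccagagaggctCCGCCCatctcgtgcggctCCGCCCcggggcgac

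The Anxa2 window held 1 match to AP-1, the site of FOS and JUN factors, beginning 95 bases before the start, 1 TATA match beginning 17 bases before it and 3 GC boxes. Over all 32851 RefSeq windows of this length, 6.75% held an AP-1 match, 12.4% a TATA match and 32.7% a GC box. The Anxa5 window held a match to 0 of the 7 motifs, and the Anxa11 window held 3 GC boxes, written as CCGCCC on its own strand, and no other match. TEAD, STAT, CRE and CCAAT letters stood in 12.6%, 7.02%, 1.55% and 33.8% of all windows and in none of these 3. No matches overlapped in the printed windows. Such a match is a run of letters and not a shown binding site, and a window without one says nothing of the factor. The table held windows for 6 of the 9 members, and Anxa3, Anxa6 and Anxa13 were not among them. Of the windows not printed, that of Anxa1 held a TATA and a TEAD match. Both windows of Anxa4, which was not called, held no match, like that of Anxa5. The windows of Anxa7 held GC boxes only. Whether the letters go with the fold was not tested.

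Anxa3, an annexin best known from neutrophils and from phospholipase A2 inhibition in vitro, had 2 control counts and 80 APAP counts, or 0.0430 and 1.39 CPM. The ratio was 32.4, close to that of Anxa2, but with a counting interval from 8.67 to 272. It remained a rare transcript in both libraries, at the lowest level of the 3 members called higher, and it was no longer called at a minimum of 100 counts.

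Anxa5, which binds exposed phosphatidylserine, assembles into lattices on torn membranes and is widely used as a probe for dying cells, was abundant in both libraries. It had 1916 control and 7162 APAP counts, or 41.2 and 125 CPM. Its level was 3.02-fold higher (2.87 to 3.18), a far smaller ratio than that of Anxa2 from a far higher base. The gain in CPM was nevertheless larger than that of Anxa2.

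Anxa4 and Anxa6 lay above 1 without reaching 2-fold. Anxa4, an annexin of secretory epithelia, had 1618 and 2936 counts, or 34.8 and 51.1 CPM, a ratio of 1.47 (1.38 to 1.56). Anxa6, which has a doubled core of repeats and acts in endocytosis and cholesterol traffic, had 4569 and 7155 counts, or 98.2 and 124 CPM, a ratio of 1.27 (1.22 to 1.31). The APAP library was the higher for both genes beyond counting error, and with scaling by library totals their ratios were 1.86 and 1.61, still under 2. Under that scaling the same 3 members were called higher and 0 lower, beside 17.3% and 4.44% of all 14096 genes.

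Anxa7 and Anxa11, both with a long N-terminal tail that binds the calcium sensor Pdcd6, lay slightly below 1. Anxa7, which promotes membrane fusion, had 4745 and 5150 counts, or 102 and 89.6 CPM, a ratio of 0.878 (0.844 to 0.913). Anxa11, which tethers RNA granules to lysosomes, had 2022 and 2286 counts, or 43.5 and 39.8 CPM, a ratio of 0.915 (0.861 to 0.971). The direction of these 2 genes depends on the scaling: library totals moved every log2 fold up by 0.35, and the ratios were then 1.12 and 1.16. For Anxa11 a further limit is that 14.6% of its 50-base stretches also occur in the annotated transcripts Gm2260 and Gm2274, so reads from them could not be told apart. The antisense gene Anxa11os had 0 and 8 counts.

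**Figure D2:**
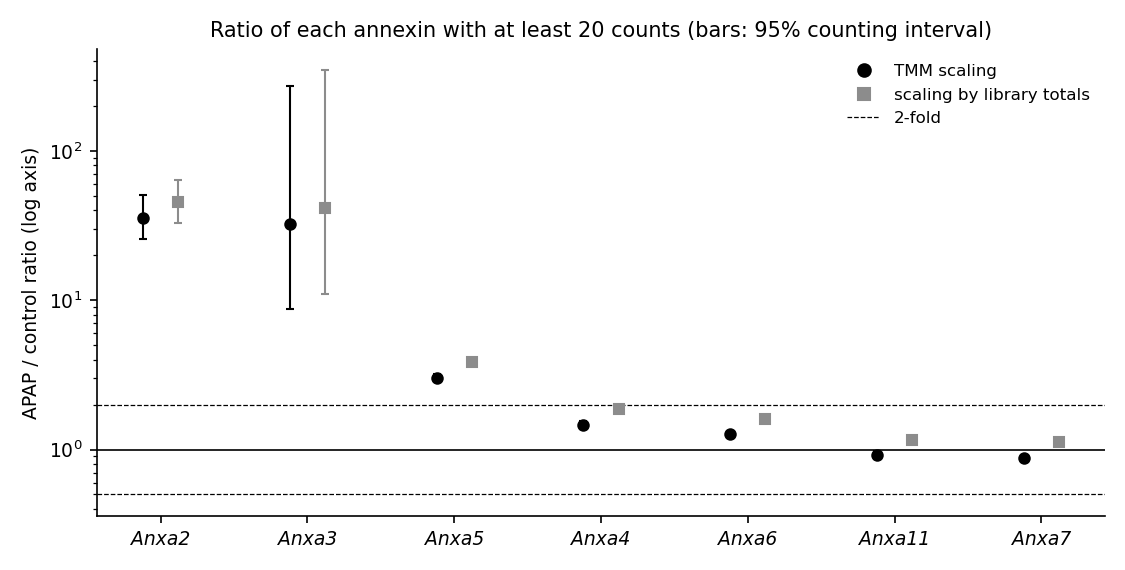
Ratio of the APAP to the control level for the 7 annexins with at least 20 counts, on a log axis, with 95% counting intervals, under TMM scaling (black) and scaling by library totals (grey); dashed lines mark 2-fold. Anxa2, Anxa3 and Anxa5 lay above 2 under both scalings, and Anxa7 and Anxa11 crossed 1, from 0.878 to 1.12 and from 0.915 to 1.16.

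Anxa1, whose protein limits inflammation through formyl peptide receptors, had 2 control counts and 0 APAP counts, and the exact interval of that 0 reaches 0.0642 CPM. Anxa13, an annexin of the intestinal epithelium, had 2 counts in each library. At this depth no difference was detectable for either gene. The mouse annexins outside the 9 were also rare. Anxa8 had 10 and 4 counts, a ratio of 0.324 whose interval (0.0741 to 1.12) held 1, and Anxa10 had 1 and 0 counts. Anxa9 had 18 and 60 counts, a ratio of 2.70 (1.57 to 4.85), but its exons overlap those of Mindy1 on the opposite strand, which had 4356 and 4846 counts, and the strand setting of the counting is not given in the labels.

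**Figure D3:**
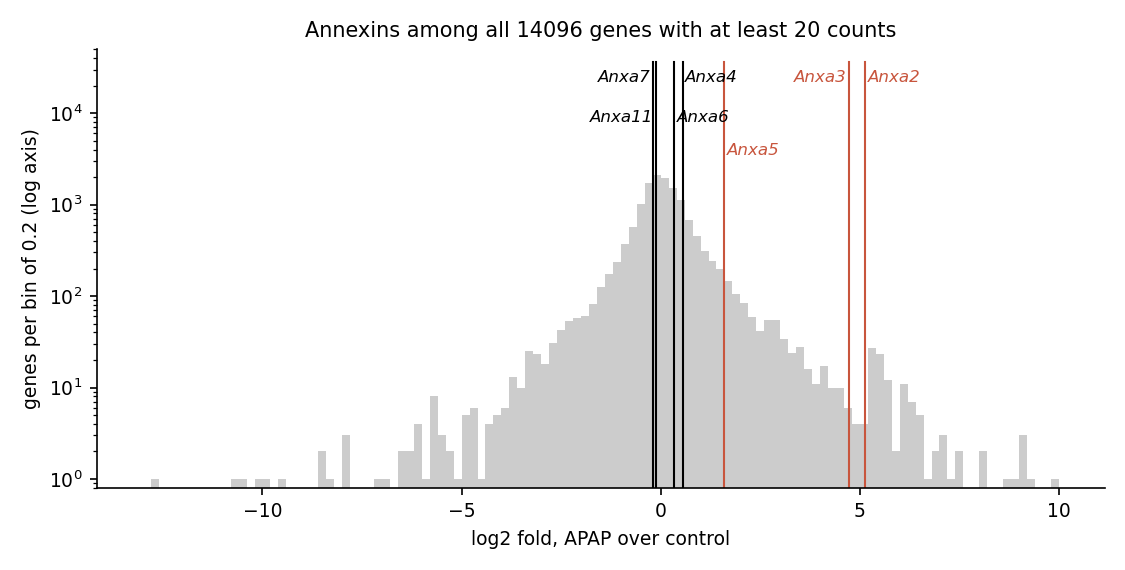
Number of genes per bin of 0.2 in log2 fold, on a log axis, for all 14096 genes with at least 20 counts, with lines at the 7 annexins (red where called higher). Genes at 0 counts in 1 library take a prior of 0.5 counts, which sets their place in the outer bars; Anxa2 and Anxa3 lie in the upper tail, at 5.14 and 4.73, and Anxa7, Anxa11, Anxa6 and Anxa4 near the centre.

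The make-up of the annexin transcripts can be read without any scaling between libraries, as shares of the summed counts of the 9 members, which came to 14914 for control and 26441 for APAP. Anxa2 took 0.255% of the control sum (exact Clopper-Pearson interval 0.180 to 0.350) and 6.32% of the APAP sum (6.03 to 6.62). Anxa5 took 12.8% (12.3 to 13.4) and 27.1% (26.6 to 27.6). The shares of these 2 genes were larger in the APAP library, whereas those of Anxa7 and Anxa11 were smaller. Shares are parts of a whole, so a smaller share need not mean fewer counts of that gene. Anxa7 took 31.8% (31.1 to 32.6) and 19.5% (19.0 to 19.96), and Anxa11 took 13.6% (13.01 to 14.1) and 8.65% (8.31 to 8.99). Anxa6 took 30.6% (29.9 to 31.4) and 27.1% (26.5 to 27.6), and Anxa4 took 10.8% (10.4 to 11.4) and 11.1% (10.7 to 11.5), whose intervals overlapped. The summed level of the 9 genes was 1.43-fold higher (1.41 to 1.46), from 321 to 460 CPM. That sum includes Anxa2. Without Anxa2 the summed counts, before any scaling, were 14876 for control and 24771 for APAP, beside 14914 and 26441 with it. These unscaled sums cannot be set against the scaled fold of 1.43.

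**Figure D4:**
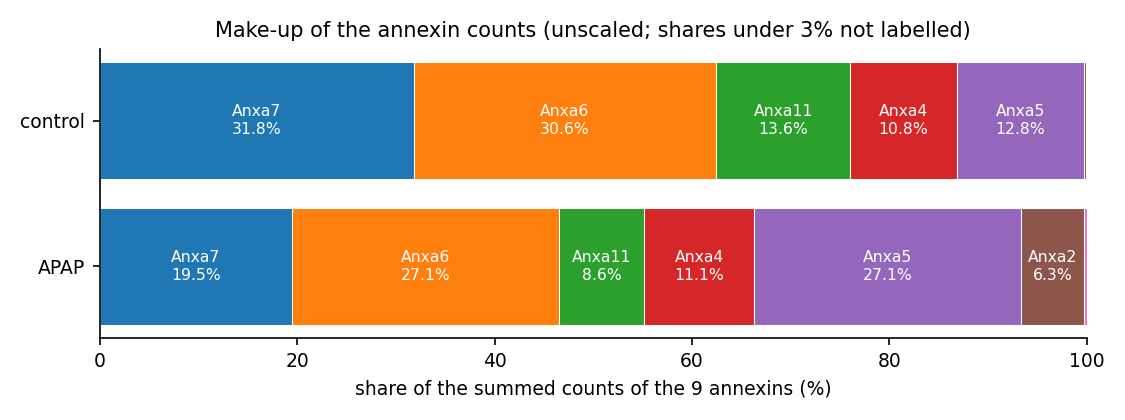
Share of each annexin in the summed counts of the 9 members, in percent, for the control library (top) and the APAP library (bottom); members under 3% carry no label. The share of Anxa5 went from 12.8% to 27.1% and that of Anxa2 from 0.255% to 6.32%. The share of Anxa7 went from 31.8% to 19.5%, although its unscaled counts were 4745 and 5150.

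Levels of different genes can be compared only per length, here as CPM per kb of the longest principal coding transcript in GENCODE. In the control library the order was Anxa6 (39.5 CPM per kb), Anxa7 (35.1), Anxa5 (23.8), Anxa11 (18.2), Anxa4 (17.1) and, far below, Anxa2 (0.565). The counting intervals of Anxa11 and Anxa4 overlapped. In the APAP library Anxa5 led with 72.0 CPM per kb, ahead of Anxa6, which stood at 0.695 of that level (0.672 to 0.718), Anxa7 (30.8 CPM per kb), Anxa4 (25.2), Anxa2 (20.1), Anxa11 (16.6) and Anxa3 (0.872). Anxa2 thus stood among the abundant annexins in the APAP library and well below them in the control library. The length used matters for neighbours in this order: per kb of all annotated exons, Anxa5 stood above Anxa7 in the control library and Anxa2 below Anxa11 in the APAP library.

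The S100 and other binding partners were examined next, from a list of 9 genes of which 7 were in the table and 6 held at least 20 counts. Of these 6, S100a11 was called higher and 0 were called lower, with a median log2 fold of 0.48. This count and those of the lists that follow stand beside 10.7% higher and 7.09% lower among all genes, and since the lists were chosen with this contrast known, nothing is read from them. S100a11, which docks on the tails of Anxa1 and Anxa2, had 21 control and 734 APAP counts (0.452 and 12.8 CPM) and was 28.3-fold higher (18.4 to 46.0). S100a10, the partner of Anxa2 in their joint complex, was abundant in both libraries, with 2648 and 6299 counts, and was 1.92-fold higher (1.84 to 2.01), just under the 2-fold rule. With library totals its ratio was 2.44. S100a1, an S100 protein best known from heart muscle, had a ratio of 0.866 (0.820 to 0.915) that turned to 1.10 with library totals.

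Per kb, S100a10 stood far above Anxa2 in the control library and less so in the APAP library. The S100a10 level per kb was 147-fold that of Anxa2 in the control library (107 to 208) and 7.97-fold in the APAP library (7.55 to 8.41). The corresponding values per kb of all annotated exons were 215 and 11.6. S100a11 stood at 1.56-fold the Anxa2 level per kb in the control library (0.873 to 2.74) and 1.24-fold in the APAP library (1.14 to 1.36). With all annotated exons these values were 4.03-fold and 3.21-fold, so how close the 2 genes stood depends on the length used. The intervals of the ratio to S100a10 did not overlap between the libraries, whereas those of the ratio to S100a11 did.

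Because Anxa2 and S100a10 form a plasminogen receptor, genes of plasminogen activation were listed. Of the 6 reported here that held at least 20 counts, Plaur was called higher, 0 were called lower, and the median log2 fold was 0.56. Plaur, the urokinase receptor gene, had 2 control and 20 APAP counts, 8.09-fold higher (1.97 to 71.4). It was no longer called at a minimum of 100 counts. Plg, the plasminogen gene, was among the abundant transcripts of both libraries at 2078 and 2299 CPM, a ratio of 1.11 (1.10 to 1.12), and Serpinf2, which encodes the plasmin inhibitor alpha-2-antiplasmin, had a ratio of 1.52 (1.49 to 1.54).

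Likeness to Anxa2 was measured as the distance between genes in log2 CPM over the 2 libraries. Among the 5 genes nearest to Anxa2 were Nid1, a basement membrane gene, at 1.12, Sdsl, a serine dehydratase-like gene, at 1.19, Abcd2, a peroxisomal transporter gene, at 1.35, and Sox9, a transcription factor gene of biliary cells, at 1.39. These 4 were called higher. With 2 libraries such likeness says only that control and APAP levels were alike.

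The list around Anxa1 held its receptors, the kinase Trpm7 and phospholipase A2 and prostaglandin synthase genes. Only 3 of its 12 genes held at least 20 counts, 0 were called higher or lower, and the median log2 fold was -0.65. The formyl peptide receptor genes were not listed in the table. Trpm7 had a ratio of 0.538 (0.499 to 0.580) and the phospholipase gene Pla2g6 a ratio of 0.638 (0.605 to 0.673), both below 1 also with library totals, at 0.684 and 0.810.

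Of 32 genes of plasma membrane repair, 27 held at least 20 counts, of which 3 were called higher, 0 were called lower and 24 met neither rule, so that the share called higher was close to the 10.7% of all genes. The median log2 fold was 0.17. Tgm2, a calcium-dependent transglutaminase, was 3.68-fold higher (3.54 to 3.83), from 64.0 to 236 CPM. Ehd4, a membrane-shaping ATPase, was 3.97-fold higher (3.27 to 4.84), and Chmp4c, a subunit of the ESCRT-III filaments that seal membranes, was 3.22-fold higher (2.32 to 4.55). Pdcd6ip, which encodes the ESCRT adaptor ALIX, had a ratio of 1.02 (0.984 to 1.05) that was 1.29 with library totals.

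Genes of phosphatidylserine exposure and uptake, whose lipid is the ligand of Anxa5, included 7 called higher and 0 called lower among the 15 reported here that held at least 20 counts, beside 10.7% and 7.09% of all genes, with a median log2 fold of 0.87. Mfge8, a secreted protein that bridges phosphatidylserine to integrins, had 10 control and 252 APAP counts, 20.4-fold higher (10.9 to 43.0). Gas6, which bridges the lipid to the receptors Axl, Mertk and Tyro3, was 4.83-fold higher (4.43 to 5.26) and reached 64.8 CPM. Mertk had a ratio of 0.573 (0.490 to 0.669), or 0.728 with library totals. Of the 15 genes, 10 had a ratio interval above 1 and 4 below 1. Of these 4, only Mertk kept an interval below 1 with library totals. The lipid scramblase gene Ano6 was 2.62-fold higher (2.08 to 3.32), Plscr1 2.19-fold (1.91 to 2.52) and the flippase gene Atp8a1 4.79-fold (2.58 to 9.70). Stab1, a scavenger receptor gene best known from sinusoidal endothelium, was 2.18-fold higher (1.70 to 2.81). Tmem30a, which encodes the shared partner subunit of flippases, had a ratio of 0.917 (0.888 to 0.947), or 1.16 with library totals. Pros1, which encodes protein S, a bridging ligand like Gas6, went from 47.5 to 55.6 CPM, a ratio of 1.17 (1.11 to 1.24).

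**Figure D5:**
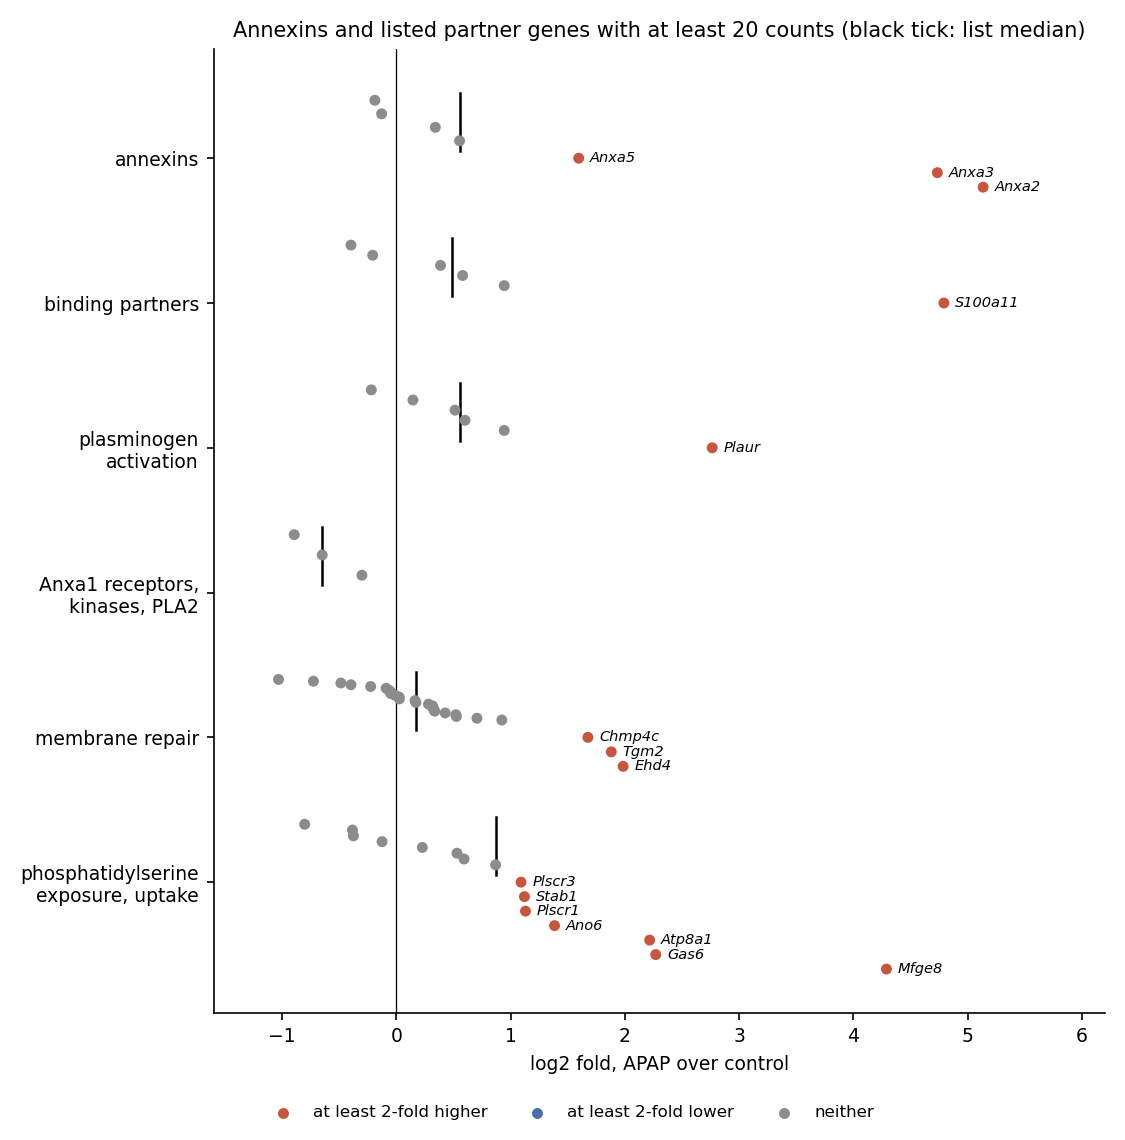
Log2 fold of each reported gene with at least 20 counts, APAP over control, for the annexins and 5 lists of partner genes, coloured by call, with a black tick at the list median. S100a11 and Mfge8 lay in the range above 4 with Anxa2 and Anxa3, and most genes of membrane repair lay near 0.

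Markers of other cells moved between the libraries as well, and their part in the annexin values was not tested. Of 15 macrophage markers, 7 were listed, and their summed level went from 0.0645 to 6.11 CPM, of which Cd68 gave 4.99 CPM after APAP. Ptprc, Adgre1, Clec4f and Vsig4 were not listed, and 6 of the listed markers, Lyz2, Cd5l and Csf1r among them, were at 0 counts in the control library. Of 12 neutrophil markers, 3 were listed, with summed levels of 0.0860 and 0.209 CPM, and S100a8 and S100a9 were not listed. All 12 endothelial markers were listed, at summed levels of 24.3 and 30.2 CPM, with 5 called higher and 2 called lower.

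Of 12 markers of stellate cells and fibroblasts, 10 were listed, at summed levels of 1.35 and 11.3 CPM, of which Reln gave 0.753 and 9.39 CPM. Col1a1, Col1a2, Col3a1, Pdgfrb and Hand2 had 0 control counts and reached at most 0.365 CPM after APAP. Of 12 cholangiocyte markers, 6 were listed, at 17.8 and 52.3 CPM. The defining cholangiocyte markers Krt7, Krt19 and Epcam were not listed, and Sox9 and Spp1 were 11.4-fold (9.31 to 14.2) and 11.3-fold (8.23 to 15.9) higher. Of 10 lymphocyte markers, 4 were listed, and their summed level was 7.93 CPM for control against 0.174 CPM for APAP. Of 6 erythroid markers, Alas2 was listed, at 95.7 and 36.4 CPM.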

How the data were processed

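The deposited raw table held counts per Ensembl gene that the authors had not normalized. The deposited normalized signal was each count divided by 1 factor per library (0.894 for control, 1.12 for APAP), and the labels name no tool for it. HISAT2, Subread and build mm39 are named in the submitters' processing notes; the annotation, strand setting and mate handling are not given in the sources used here.

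Symbols were matched for 20679 of 20823 identifiers. TMM factors (0.887 and 1.13) came from edgeR 4.0.16 in R 4.3.3, giving effective totals of 46508421 and 57493500, so that 1 count was worth 0.0215 and 0.0174 CPM. DESeq2 1.42.0 gave an alternative scaling, whose size factors equalled those of the deposited normalized signal (0.894 and 1.12). Ratios carry exact conditional Poisson intervals and levels exact Poisson intervals, from Python 3.11.15 with scipy 1.17.1. Log2 folds used a prior of 0.5 counts. A floor of 3 counts per library (0.0645 and 0.0522 CPM) replaced 0 counts in bounds. Reads carried no molecular identifiers, and 68.3% and 70.6% of counts from 1 to 20 were even, so intervals are too narrow if mates were counted separately.

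With 1 library per group edgeR's test has no residual degrees of freedom, and none was run. Steps were tested on simulated data. Transcript lengths and overlaps came from GENCODE M21 (GRCm38), by name only. Protein sequences were not analysed here. A pair of partner-list genes is not reported here and was left out of the list counts and medians after their values were known.

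Members, gene lists, motifs and tests were chosen with earlier results of these data known. Mertk was named outside the rule that follows. Named genes were all annexins; from each partner list the called members, up to the 6 with the interval bound farthest from 1, and its 2 most abundant members; and the 5 genes nearest to Anxa2 in log2 CPM.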

Additional observations from a re-analysis of the deposited data

How the results depend on the processing

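The members called higher stayed at 3 under each scaling, without a count minimum, at folds of 1.5 and 3 and with counts halved, and were 2 at a minimum of 100 counts; 0 were called lower under every one of these alternatives. With library totals, 17.3% of all genes were called higher and 4.44% lower. The corresponding shares were 17.2% and 4.46% with totals without genes above 1% of counts. With DESeq2 size factors they were 10.6% and 7.28%. The shares of all genes called higher and lower were 9.59% and 6.29% without a count minimum. They were 7.14% and 5.54% at a minimum of 100 counts and 6.07% and 3.56% at a fold of 3. With counts halved they were 9.003% and 6.26%. Scaling by library totals and by totals without genes above 1% gave a median log2 fold of 0.90 and 0.89, a summed fold of 1.82 and 1.82, and turned the direction of Anxa7 (1.12 and 1.11) and Anxa11 (1.16 and 1.16), since both scalings shift all genes upward. The median was 0.34 with no count minimum, which adds Anxa1 and Anxa13, and 0.45 at a minimum of 100, which drops Anxa3. Of the 55 partner genes reported here, 12 were called higher and 0 lower at a fold of 2, 15 and 0 with library totals, and 17 and 4 at a fold of 1.5, where 17.6% and 13.1% of all genes were called. Without Anxa2 in the sum, the share of Anxa5 in the APAP library was 28.9%. DESeq2 size factors, which equal the factors of the authors' normalized signal and so are the same scaling, gave a median of 0.54. With counts halved, as if mates were counted separately, the interval of Anxa3 widened to 5.48 to 1309.6. Depth limits Anxa1, Anxa13 and the control level of Anxa3. No paired analysis was possible because each group has 1 library.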
